A study of Mus musculus with 32 samples.

Results

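The genes described here are 10 genes of Notch signalling and of arterial or venous endothelial identity: Notch1, Notch4, Dll4, Jag1, Hey1, Efnb2, Ephb4, Nr2f2, Gja4 and Gja5. They were chosen by name, with earlier results of these data known, and all 10 were present among the 43035 genes of each count table. All 10 passed the filter on low counts in whole muscle and in sorted cells.

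RNA was sequenced from mice that carried DUX4 as an inducible gene and from wild-type (WT) mice. DUX4 is a transcription factor of the early embryo, and its expression in skeletal muscle causes facioscapulohumeral muscular dystrophy. Mice of every group, WT included, ate chow containing doxycycline, the drug used to switch such genes on. The 32 libraries formed 8 groups. Whether the 2 and 16 weeks in the group names are ages or times on the chow is not given. For whole muscle at 2 weeks there were 5 libraries of DUX4 mice, called IDUX.2Weeks, beside 5 of WT mice, called WT.2Weeks. For whole muscle at 16 weeks there were 4 of each, called IDUX.16Weeks and WT.16Weeks. Endothelial cells were sorted from hind limb muscle by CD31, with 4 libraries from DUX4 mice (CD31DUX) beside 3 from WT mice (CD31WT). Fibroadipogenic progenitors (FAPs), the stromal cells that form fibrous and fatty tissue in muscle, were sorted by PDGFRa, again with 4 from DUX4 mice (PDGDUX) beside 3 from WT mice (PDGWT). The promoter that drives the DUX4 gene, the cells that express it, the strain, age and sex of the mice, the muscles used whole and the time of the cell sorts were not found in the labels. Nor do the labels say that replicates came from separate animals, so the p-values measure the spread between these libraries.

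Notch receptors are cut after they bind a ligand on a neighbouring cell, and the freed part enters the nucleus and switches on target genes with the DNA-binding protein RBPJ. In blood vessels, Notch1 and Notch4 are the main endothelial receptors, Dll4 and Jag1 are ligands, and Hey1 is a target. Notch signalling favours the arterial state, which is marked by ephrin B2 (Efnb2) and the gap junction proteins Gja4 and Gja5. Veins are marked by EPHB4, the receptor of ephrin B2, and by NR2F2 (COUP-TFII), which holds back Notch signalling in the vein.

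Library totals ran from 6071276 to 20666816 counts, so that 3 counts, taken as the limit of a count of 0, stood for 0.145 to 0.494 CPM (counts scaled to a library total of 1000000). This limit covers counting error only. The sorts carried their markers: the FAP marker Pdgfra was at 839 to 993 CPM in WT FAPs and 30.0 to 68.7 CPM in WT endothelial cells, and the endothelial marker Pecam1 was at 1150 to 1400 CPM in WT endothelial cells and 33.3 to 63.7 CPM in WT FAPs. The endothelial sorts also held transcripts of other cells. The summed level of 10 FAP markers was 12700 to 15000 CPM in DUX4 and 4670 to 7060 CPM in WT endothelial libraries, and that of 5 lymphatic endothelial markers was 1840 to 2750 CPM in DUX4 and 284 to 476 CPM in WT. Muscle fibre markers summed to 355 to 898 CPM in DUX4 and 109 to 254 CPM in WT. Immune cell markers summed to 537 to 1120 CPM in DUX4 and 69.8 to 681 CPM in WT, with CD31WT replicate 1 at 681 CPM. Schwann cell markers were lower in DUX4, at 86.9 to 118 CPM against 141 to 213 CPM, and satellite cell marker sums overlapped. WT.16Weeks replicate 1 stood apart from the other 3 of its group, with 201 CPM summed over 11 core endothelial markers against 444 to 457 CPM. Within the 2-week groups the same sum was 219 to 302 CPM in DUX4 replicates 1 to 3, 463 and 592 CPM in DUX4 replicates 5 and 4, 446 to 472 CPM in WT replicates 1 to 3, and 614 and 751 CPM in WT replicates 5 and 4. These 2 sets of 2-week libraries were taken from earlier work on these data.

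The upstream sequences of the 3 genes on which the results below turn are shown first, because the arterial ligand Efnb2 was the member called in DUX4 FAPs, Notch1 the member whose DUX4 change differed between the cell types, and Dll4 the member with the highest level in endothelial cells. Each is the 250 bases before the RefSeq transcription start on GRCm38.p6, 5′ to 3′ on the strand of the gene, and capitals mark each GC box (GGGCGG or its reverse complement CCGCCC).
Efnb2, chr8:8661243-8661492, minus strand: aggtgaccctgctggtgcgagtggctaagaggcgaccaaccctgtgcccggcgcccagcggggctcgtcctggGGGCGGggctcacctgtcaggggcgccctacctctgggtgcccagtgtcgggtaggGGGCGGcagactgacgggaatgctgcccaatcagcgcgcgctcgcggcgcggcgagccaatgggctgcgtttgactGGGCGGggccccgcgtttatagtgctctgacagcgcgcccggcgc
Notch1, chr2:26503823-26504072, minus strand: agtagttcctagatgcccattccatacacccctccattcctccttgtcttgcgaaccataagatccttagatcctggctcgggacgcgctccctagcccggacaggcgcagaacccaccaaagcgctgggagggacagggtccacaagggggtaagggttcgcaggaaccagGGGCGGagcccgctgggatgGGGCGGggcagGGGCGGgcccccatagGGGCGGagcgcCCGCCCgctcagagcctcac
Dll4, chr2:119325534-119325783, plus strand: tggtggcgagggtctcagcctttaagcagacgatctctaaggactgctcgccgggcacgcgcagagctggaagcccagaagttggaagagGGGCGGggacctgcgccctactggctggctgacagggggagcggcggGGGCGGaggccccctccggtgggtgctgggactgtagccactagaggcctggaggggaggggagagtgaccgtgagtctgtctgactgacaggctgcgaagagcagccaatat
The Efnb2 stretch was 72.0% G or C and held 3 GC boxes, the Notch1 stretch was 66.0% G or C and held 5, and the Dll4 stretch was 65.6% G or C and held 2. The RefSeq start of Notch1 lies inside the GENCODE gene and not at its edge. RefSeq promoters were found for 9 of the 10 genes, and Hey1 was the member without one. The GC box was present in 6 of the 9, and in 32.7% of 32851 mouse promoters of the same length. The core of the RBPJ motif (TGGGAA, or TTCCCA on the other strand) was in 0 of the 9, and in 21.6% of all promoters. The E-box CACGTG, which reads the same on both strands and is bound by HEY proteins, was in 0 of the 9, and in 6.02% of all. These counts say only which letters stand in these windows.

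In WT cells, all 10 genes were lower in FAPs than in endothelial cells, and no library of the one overlapped a library of the other for any of them. All 10 were called by edgeR's quasi-likelihood test at a Benjamini-Hochberg adjusted p under 0.05, where 31.1% of the 17008 genes tested were called and 44.6% had groups that did not overlap. Their median log2 difference was -3.34, against -0.02 over all genes tested. The size of the difference ran from a log2 of -0.95 for Nr2f2 to -5.38 for Dll4.

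Levels per kilobase of exon, which allow genes to be compared, put Dll4 first among the 10 in WT endothelial cells, at 70.3 ± 13.8 CPM per kb (SD, n = 3). Gja4 followed at 35.9 ± 13.4, Ephb4 at 26.7 ± 4.72, Efnb2 at 20.3 ± 2.57, Hey1 at 18.1 ± 2.35, Notch4 at 17.2 ± 3.66 and Notch1 at 16 ± 1.8 CPM per kb. Jag1 was at 11.6 ± 1.13, Gja5 at 7.59 ± 3.37 and the venous factor Nr2f2 last at 1.87 ± 0.490 CPM per kb. Dll4 was separate from Gja4, Notch1 from Jag1 and Gja5 from Nr2f2, while every other pair of neighbours in this order overlapped. In WT FAPs the order began with Efnb2 at 7.12 ± 2.44, Jag1 at 5.85 ± 1.35 and Ephb4 at 5.81 ± 0.741 CPM per kb, which overlapped, and these 3 were separate from the other 7, all at 1.72 CPM per kb or less.

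Among the receptors, Notch1 (chromosome 2, 26457903 to 26516663, minus strand of GRCm38; ENSMUSG00000026923) had 199, 243 and 243 CPM in the WT endothelial libraries and 20, 23.0 and 26.4 CPM in the WT FAP libraries. Its log2 difference was -3.30 ± 0.18 (SE; edgeR adjusted p = 1.16e-09). Notch4 (chromosome 17, 34564268 to 34588503, plus strand), a receptor largely limited to endothelium, had 111, 135 and 170 CPM against 1.30, 7.24 and 2.03 CPM. PDGWT replicate 2 was the high FAP library, and the Notch4 difference of -5.31 ± 0.76 became -6.36 without it.

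Among the ligands, Dll4 (chromosome 2, 119325784 to 119335962, plus strand; upstream sequence above) had 215, 321 and 277 CPM in WT endothelial libraries and 9.95, 3.99 and 5.55 CPM in WT FAP libraries. Jag1 (chromosome 2, 137081456 to 137116644, minus strand) differed far less, with 69.0, 60.4 and 73.3 CPM against 43.0, 31.1 and 28.2 CPM and a log2 difference of -0.99 ± 0.26 (edgeR adjusted p = 0.00872). The log2 ratio of Dll4 to Jag1 was 1.64 to 2.41 in WT endothelial libraries and -2.92 to -2.10 in WT FAP libraries, so that Dll4 was the more abundant of these ligands in the first and Jag1 in the second. Hey1 (chromosome 3, 8663359 to 8667256, minus strand) had 50.6, 65.7 and 60.6 CPM against 6.37, 3.59 and 6.93 CPM.

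Of the ephrin pair, Efnb2 (chromosome 8, 8617434 to 8661242, minus strand; ENSMUSG00000001300) had 139, 157 and 122 CPM in WT endothelial libraries and 67.9, 41.8 and 36.8 CPM in WT FAP libraries, a log2 difference of -1.51 ± 0.21 (edgeR adjusted p = 2.47e-05). Its receptor Ephb4 (chromosome 5, 137350109 to 137378669, plus strand) had 136, 137 and 98.8 CPM against 24.7, 25.2 and 30.9 CPM. Both genes were therefore well above 0 in every FAP library. Nr2f2 (chromosome 7, 70351944 to 70366735, minus strand) had 15.0, 20.8 and 12.5 CPM against 9.40, 5.28 and 10.3 CPM, and its call was the least firm of the 10. It was at adjusted p = 0.0366, and was lost with no low-count filter (0.0506), with these groups alone (0.0697) and without CD31WT replicate 2 (0.148), PDGWT replicate 1 (0.0618) or PDGWT replicate 2 (0.162).

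The arterial connexins were near the bottom of the range in FAPs. Per kilobase in WT FAPs, Gja5 was the lowest of the 10 at 0.389 CPM per kb and Gja4 stood at 1.2 CPM per kb, above Nr2f2 (0.967) and Notch4 (0.437). In CPM, Gja4 (chromosome 4, 127311421 to 127314039, minus strand) had 40.1, 84.8 and 56.7 CPM in WT endothelial libraries and 1.30, 2.57 and 2.20 CPM in WT FAP libraries. Gja5 (chromosome 3, 96904693 to 97077416, plus strand) had 65.9, 31.7 and 33.1 CPM against 1.24, 3.32 and 2.14 CPM. All 10 are protein-coding genes. Genes on the opposite strand overlap Notch1, Notch4, Dll4, Ephb4, Nr2f2 and Gja5, and the sources used here do not say if counting used the strand, so reads of these partners cannot be told apart.

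**Figure D1:**
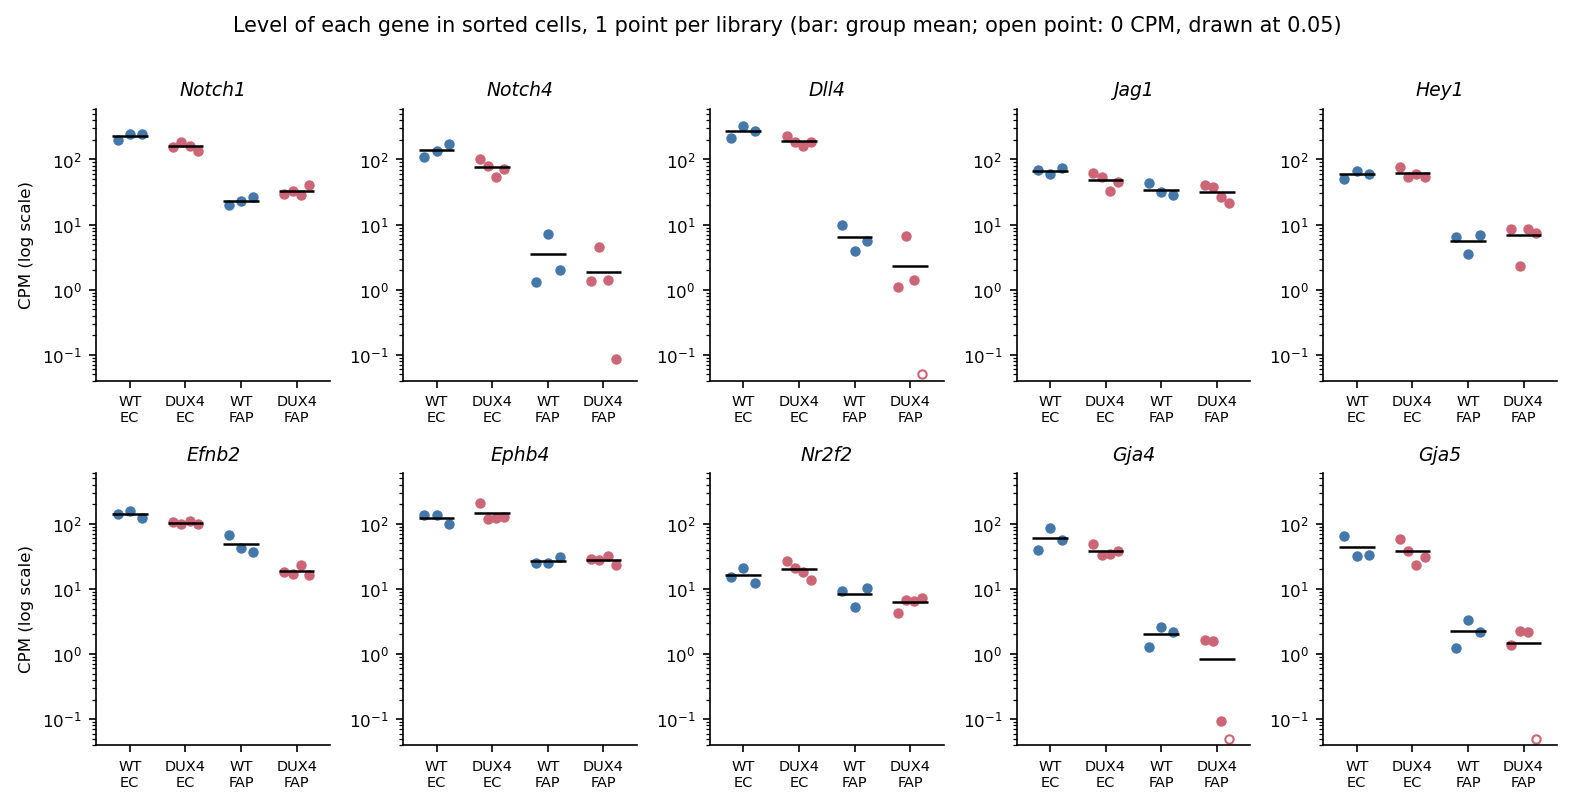
Level of each of the 10 genes in sorted cells, in CPM on a log axis, with 1 point per library, WT in blue, DUX4 in red and a bar at the group mean (3 or 4 libraries a group). WT endothelial libraries lie above WT FAP libraries for each gene, and the open points, drawn at 0.05 CPM, are Dll4, Gja4 and Gja5 in PDGDUX replicate 4, where they had 0 counts.

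The share of the WT endothelial level that WT FAP libraries held separated the 10 genes. Dll4 was at 2.40%, Notch4 at 2.54%, Gja4 at 3.34% and Gja5 at 5.12%. The 11 core endothelial markers had a median share of 2.35%, with a range of 1.68% to 44.0%, in which Tek (44.0%) and Eng (34.7%) were the high values. Hey1 stood at 9.54%, Notch1 at 10.1%, Ephb4 at 21.7%, Efnb2 at 35.0%, Jag1 at 50.5% and Nr2f2 at 51.8%. The other 9 markers lay between 1.68% (Kdr) and 3.86% (Erg), a range that held Dll4, Notch4 and Gja4 and lay below the other 7 members.

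**Figure D2:**
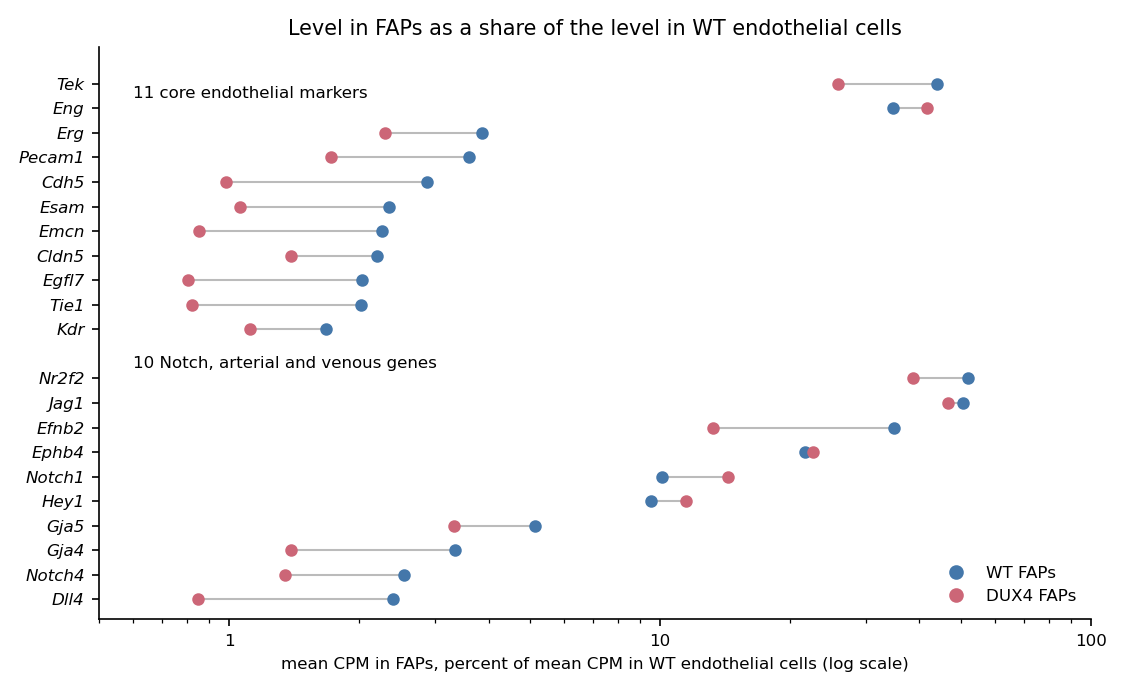
Mean CPM in FAPs as a percentage of mean CPM in WT endothelial cells, on a log axis, for the 10 genes and 11 core endothelial markers, WT FAPs in blue and DUX4 FAPs in red. Dll4 (2.40% in WT FAPs) lies among the markers, whereas Jag1 (50.5%) and Nr2f2 (51.8%) lie far to the right, and Efnb2 moves from 35.0% to 13.3% between WT and DUX4 FAPs.

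Other genes of the pathway differed between the WT cell types in both directions. Of 5 further receptors and ligands, 3 were lower in FAPs, namely Jag2 (log2 -4.72 ± 0.55), Dll1 (-4.34 ± 0.45) and Notch3 (-3.26 ± 0.47), and 2 were higher, namely Notch2 (1.93 ± 0.44) and Dlk1 (2.71 ± 0.73), which encodes a Notch-related protein of progenitor cells. Of 13 genes of receptor cleavage and the nuclear complex, 4 were higher and 2 lower in FAPs. Rbpj itself was among the higher ones (1.44 ± 0.40), and Adam10, which encodes the protease that cuts ligand-bound Notch, was lower (-1.26 ± 0.19). Of 11 modulators 3 were higher and 3 lower, led by Numbl (2.77 ± 0.19), related to the Notch inhibitor Numb. Of 6 further targets tested, 5 were lower, among them Id1 (-2.98 ± 0.20) and Nrarp (-4.89 ± 0.61), and Myc was higher (2.0 ± 0.15).

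Among further vessel genes, 11 of 16 arterial genes were lower in FAPs and 3 higher, with Sox7 (-4.32 ± 0.22), Nrp1 (-1.62 ± 0.15) and Edn1 (-3.76 ± 0.37) the lower genes of smallest adjusted p. The 3 higher ones were Tmem100 (2.2 ± 0.39), Ltbp4 (1.2 ± 0.23) and Fbln5 (1.09 ± 0.19). Of 11 venous genes 10 were lower, led by Ptgs1 (-2.93 ± 0.23), Vwf (-4.44 ± 0.36) and Nrp2 (-2.23 ± 0.21), and Il6st was not called (-0.01 ± 0.17). Of 8 further ephrin and Eph genes 5 were lower and 2 higher, led by Epha2 (-4.40 ± 0.30), Efna1 (-4.26 ± 0.32) and Efnb1 (-1.41 ± 0.20), all lower. Arterial and venous genes thus both lay mostly on the endothelial side, as all 10 members did. Of the connexins Gja1 was higher (0.57 ± 0.18) and Gjc1 lower (-0.76 ± 0.22).

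DUX4 and WT FAPs differed in the arterial ligand Efnb2. It had 18.4, 16.9, 23.0 and 16.1 CPM in the 4 DUX4 libraries and 67.9, 41.8 and 36.8 CPM in the 3 WT libraries. The highest DUX4 library lay below the lowest WT library. The log2 change was -1.39 ± 0.19 (SE; 95% interval -1.80 to -0.98; edgeR adjusted p = 0.000726), so that Efnb2 fell to 0.381 of its WT level. Efnb2 was the 1 called member of 10, where 3.0% of the 17008 genes tested were called, 301 of them lower. It remained called in 13 of 13 alternative settings, with log2 changes from -1.57 to -1.08 and adjusted p from 5.7e-08 to 0.00994.

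Ephb4, the receptor of ephrin B2, was not called beside its ligand. It had 28.6, 28.2, 32.2 and 23.7 CPM in DUX4 FAPs and 24.7, 25.2 and 30.9 CPM in WT FAPs, a log2 change of 0.06 ± 0.20 with a 95% interval of -0.36 to 0.49. The log2 ratio of Efnb2 to Ephb4 was -0.63, -0.74, -0.48 and -0.56 in the DUX4 libraries and 1.45, 0.73 and 0.25 in the WT libraries. The ligand was above the receptor in all 3 WT libraries and below it in all 4 DUX4 libraries, in CPM not corrected for length. Per kilobase of exon it was below the receptor in PDGWT replicate 3 too, at 5.37 against 6.66 CPM per kb. It stayed above in PDGWT replicates 1 and 2 and below in the DUX4 libraries. Of the other Eph and ephrin genes, Efna1 was lower (-1.35 ± 0.30; edgeR adjusted p = 0.0205).

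Notch1 lay the other way. It had 29.6, 32.8, 28.6 and 40.2 CPM in DUX4 FAPs and 20, 23.0 and 26.4 CPM in WT FAPs, and the groups did not overlap. Its log2 change of 0.50 ± 0.16 (95% interval 0.17 to 0.84) missed the threshold with edgeR (adjusted p = 0.113) and passed it with DESeq2 (0.0344). Notch1 and Efnb2 were the 2 members of 10 whose FAP groups did not overlap, where 14.7% of all genes tested had groups apart.

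The remaining members were not called in FAPs. Dll4 had 1.11, 6.63, 1.42 and 0 CPM in DUX4 libraries and 9.95, 3.99 and 5.55 CPM in WT libraries, with PDGDUX replicate 2 the high DUX4 library. Its log2 change was -1.57 ± 0.71 (edgeR adjusted p = 0.329), and -2.97 without that replicate (adjusted p = 0.0133). PDGDUX replicate 4 was at 0 for Dll4, Gja4 and Gja5, below its limit of 0.219 CPM, and held the lowest core endothelial sum of the FAP libraries. Gja4 (-1.30 ± 0.68), Gja5 (-0.64 ± 0.66) and Notch4 (-0.94 ± 0.73) had wide errors at these low counts. Jag1 (-0.11 ± 0.25), Hey1 (0.28 ± 0.34) and Nr2f2 (-0.43 ± 0.31) lay within overlapping groups.

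Endothelial transcripts in the FAP sorts moved with genotype. The 11 core endothelial markers summed to 225 to 343 CPM in DUX4 FAPs and 366 to 427 CPM in WT FAPs, none of them was under 0.5 CPM in every library of a group, and 3 of the 11 were called, all lower (Pecam1, -1.07 ± 0.19; Cdh5, -1.57 ± 0.28; Egfl7, -1.35 ± 0.25). Their median share of the WT endothelial level was 2.35% in WT and 1.12% in DUX4 FAPs, while that of Efnb2 was 35.0% and 13.3%, and that of Notch1 10.1% and 14.4%. Set against the mean log2 CPM of the 11 markers in the same library, Efnb2 was at 1.25 ± 0.49 (SD, n = 4; 0.78 to 1.68) in DUX4 and 1.66 ± 0.84 (n = 3; 0.78 to 2.46) in WT FAPs, and the groups overlapped. On that scale 33.3% of all genes tested lay apart. Notch1 (1.56 to 2.97 in DUX4 against 0.31 to 0.89 in WT), Jag1 (1.87 to 2.07 against 0.4 to 1.8) and Ephb4 (1.51 to 2.21 against 0.53 to 1.02) lay apart, and the other members overlapped. The markers that set the scale were themselves lower in DUX4, apart from Eng (0.26 ± 0.14, not called). The part of endothelial transcripts in the values of Efnb2, Dll4, Notch4, Gja4 and Gja5 was not tested. Markers of mural cells, the pericytes and smooth muscle of vessels, moved too. Of 10 such markers 8 had changes below 0 in FAPs, with a median of -0.92. Myh11 (-1.85 ± 0.31) and Acta2 (-1.22 ± 0.24), both of smooth muscle, fell, and Pdgfrb (0.81 ± 0.16), which was also higher in WT FAPs than in WT endothelial cells, rose. Their summed level was 516 to 660 CPM in DUX4 and 462 to 464 CPM in WT FAPs. The part of mural transcripts in the Efnb2 value was not tested.

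Other Notch and vessel genes called in FAPs were mostly lower. Dlk1 was at 3.26 to 6.74 CPM in DUX4 and 36.8 to 98.7 CPM in WT FAPs (log2 -3.77 ± 0.70; edgeR adjusted p = 0.0100), and the ligand Jag2 at 0 to 1.39 CPM and 2.35 to 5.28 CPM (-2.68 ± 0.64; adjusted p = 0.0364). Aph1a, a subunit of the protease that frees the active part of Notch, rose (0.97 ± 0.25; 1 of 13 genes of cleavage and the nuclear complex called). Of 16 further arterial genes 3 were lower, namely Stmn2 (-1.98 ± 0.34), Fbln5 (-1.02 ± 0.17), which encodes an elastic fibre protein, and Alox12 (-2.35 ± 0.60). Fbln5 was higher in WT FAPs than in WT endothelial cells, and which cells of the sort its fall came from was not tested. Of 11 venous genes 1 was lower, Vwf, which encodes von Willebrand factor (-1.84 ± 0.32). Notch3 (0.73 ± 0.42) and Rbpj (0.55 ± 0.37) were not called.

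**Figure D3:**
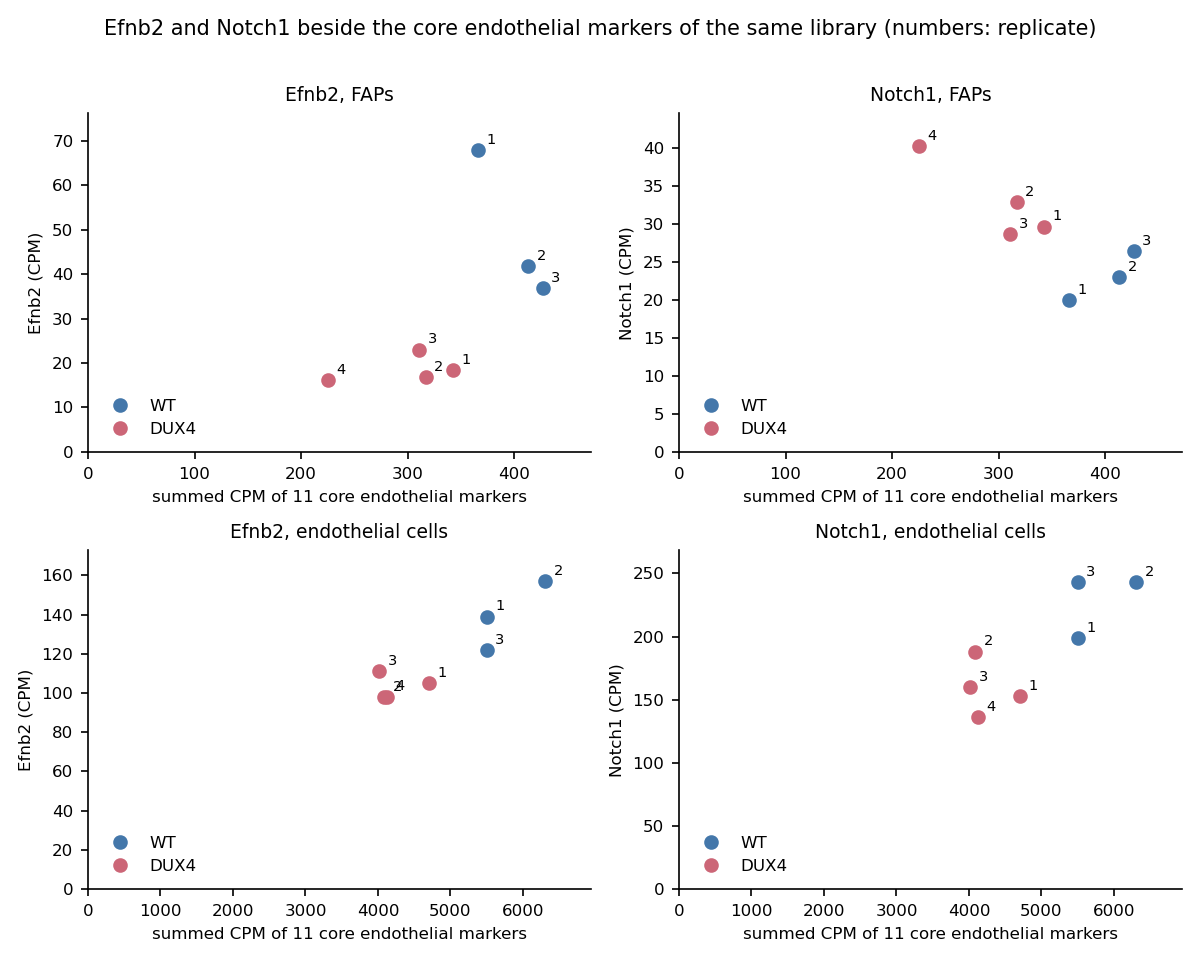
Efnb2 (left) and Notch1 (right) in CPM against the summed CPM of 11 core endothelial markers of the same library, in FAPs (top) and endothelial cells (bottom), WT in blue and DUX4 in red, numbered by replicate. In FAPs the DUX4 libraries lie below WT for Efnb2 (16.1 to 23.0 against 36.8 to 67.9 CPM) and above WT for Notch1, while in endothelial cells they lie below WT for both genes and for the markers.

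In sorted endothelial cells, none of the 10 genes was called between DUX4 and WT by edgeR, where 5.07% of 17008 genes were called. The unadjusted p was under 0.05 for 2 members, Notch1 and Efnb2, and DESeq2 called 1 (Notch1) and limma voom 2 (Notch1 and Notch4). The 5.07% is edgeR's share, and those of the other 2 tools over all genes are not given. The median log2 change of the 10 was -0.46, against -0.01 over all genes, and that of the 11 core endothelial markers was also -0.46.

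Notch1 had 153, 188, 160 and 136 CPM in DUX4 and 199, 243 and 243 CPM in WT endothelial libraries. The groups did not overlap, and the log2 change was -0.52 ± 0.15 (95% interval -0.84 to -0.19; edgeR adjusted p = 0.0628). Notch4 had 99.9, 78.7, 54.4 and 70.2 CPM against 111, 135 and 170 CPM, again without overlap (log2 -0.87 ± 0.57; edgeR adjusted p = 0.483). Efnb2 had 105, 98.0, 111 and 98.2 CPM against 139, 157 and 122 CPM, also apart (-0.44 ± 0.19; adjusted p = 0.226). These were 3 of 10 members with groups apart, where 18.1% of all genes tested had them.

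The other members overlapped between genotypes in endothelial cells. Dll4 had 231, 187, 160 and 184 CPM in DUX4 and 215, 321 and 277 CPM in WT (-0.51 ± 0.57), and Jag1 had 61.9, 54.6, 32.5 and 45.7 CPM against 69.0, 60.4 and 73.3 CPM (-0.47 ± 0.24). Hey1 (0.05 ± 0.31), Gja5 (-0.21 ± 0.54) and Gja4 (-0.64 ± 0.50) were not called. The venous pair had changes above 0, Ephb4 with 208, 117, 124 and 129 CPM against 136, 137 and 98.8 CPM (0.22 ± 0.20) and Nr2f2 with 26.4, 21.3, 18.4 and 13.7 CPM against 15.0, 20.8 and 12.5 CPM (0.31 ± 0.30). CD31DUX replicate 1 was the highest DUX4 library for both. The 95% intervals were -0.20 to 0.63 for Ephb4 and -0.33 to 0.95 for Nr2f2.

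The core endothelial markers summed to 4020 to 4700 CPM in DUX4 and 5500 to 6310 CPM in WT endothelial libraries, and all 11 had changes below 0. Set against the mean log2 CPM of these markers in the same library, Notch1 was at -0.83 ± 0.22 (SD, n = 4) in DUX4 and -0.75 ± 0.15 (n = 3) in WT, and Efnb2 at -1.45 ± 0.09 and -1.47 ± 0.14, with overlapping ranges for both genes. Ephb4 was at -1.0 ± 0.30 and -1.64 ± 0.24, Nr2f2 at -3.85 ± 0.34 and -4.60 ± 0.31, and Hey1 at -2.21 ± 0.15 and -2.71 ± 0.16 on that scale. The DUX4 and WT libraries lay apart for 2 of the 10 members, Ephb4 (-1.22 to -0.56 against -1.92 to -1.46) and Hey1 (-2.32 to -2.01 against -2.89 to -2.61), where 32.1% of all genes tested lay apart on that scale. The markers that set the scale were themselves lower in DUX4. The log2 ratio of Efnb2 to Ephb4 was -0.98, -0.25, -0.17 and -0.39 in DUX4 and 0.03, 0.20 and 0.30 in WT libraries, with no overlap. These values carry no test, as 4 against 3 libraries allow only 35 arrangements. The FAP, lymphatic and muscle fibre marker sums given above were higher in the DUX4 sorts, and the immune sums overlapped. The mural marker sum was lower, at 734 to 1080 CPM against 1330 to 1640 CPM in WT, and 8 of 10 mural markers had changes below 0 (median -0.98). Acta2 (-1.40 ± 0.23) and Myh11 (-1.68 ± 0.29) were among the 3 called lower, and Pdgfrb was called higher (1.07 ± 0.16). The part of these cell types in the members' values was not tested.

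Of the other pathway genes in endothelial cells, the target Id1 fell (-1.16 ± 0.17; edgeR adjusted p = 0.000584), from 433 to 595 CPM in WT to 192 to 261 CPM in DUX4, and Myc rose (0.68 ± 0.14). Id1 is also a target of bone morphogenetic protein signalling, and the cause of its fall was not tested. Of 16 further arterial genes 1 was called, Acvrl1 (-0.45 ± 0.12), beside a median of -0.46 for the 11 core endothelial markers. Of 11 modulators Numbl rose (0.77 ± 0.17), and Numbl was also far higher in WT FAPs than in WT endothelial cells. Notch3 (-1.18 ± 0.39; edgeR adjusted p = 0.108) and Rbpj (0.32 ± 0.37) were not called.

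The DUX4 change differed between the cell types for Notch1. The difference, FAPs minus endothelial cells, was 1.02 ± 0.22 on the log2 scale (95% interval 0.55 to 1.49; edgeR interaction test, adjusted p = 0.0217), from 0.50 in FAPs and -0.52 in endothelial cells. It was the 1 called member of 10, where 2.25% of genes were called. It passed in 16 of 19 alternative settings, and missed the threshold without CD31WT replicate 3 (0.99; adjusted p = 0.0564), without PDGWT replicate 1 (0.91; 0.0721) and without PDGWT replicate 2 (1.01; 0.0609). For Efnb2 the difference was -0.96 ± 0.27 (edgeR adjusted p = 0.0814), which passed with DESeq2 (-0.91; 0.0468) and without PDGWT replicate 3 (-1.13; 0.0377). The larger Efnb2 change in FAPs than in endothelial cells is therefore not shown by the main test. The fit treated endothelial and FAP libraries as independent, and whether they shared mice is not given. Among the other pathway genes, Aph1a (1.56 ± 0.34), Numbl (-1.05 ± 0.23), Fbln5 (-1.24 ± 0.24) and Epha4 (1.79 ± 0.43) differed, and Notch3 (1.91 ± 0.58; adjusted p = 0.112) and Rbpj (0.23 ± 0.52) were not called.

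**Figure D4:**
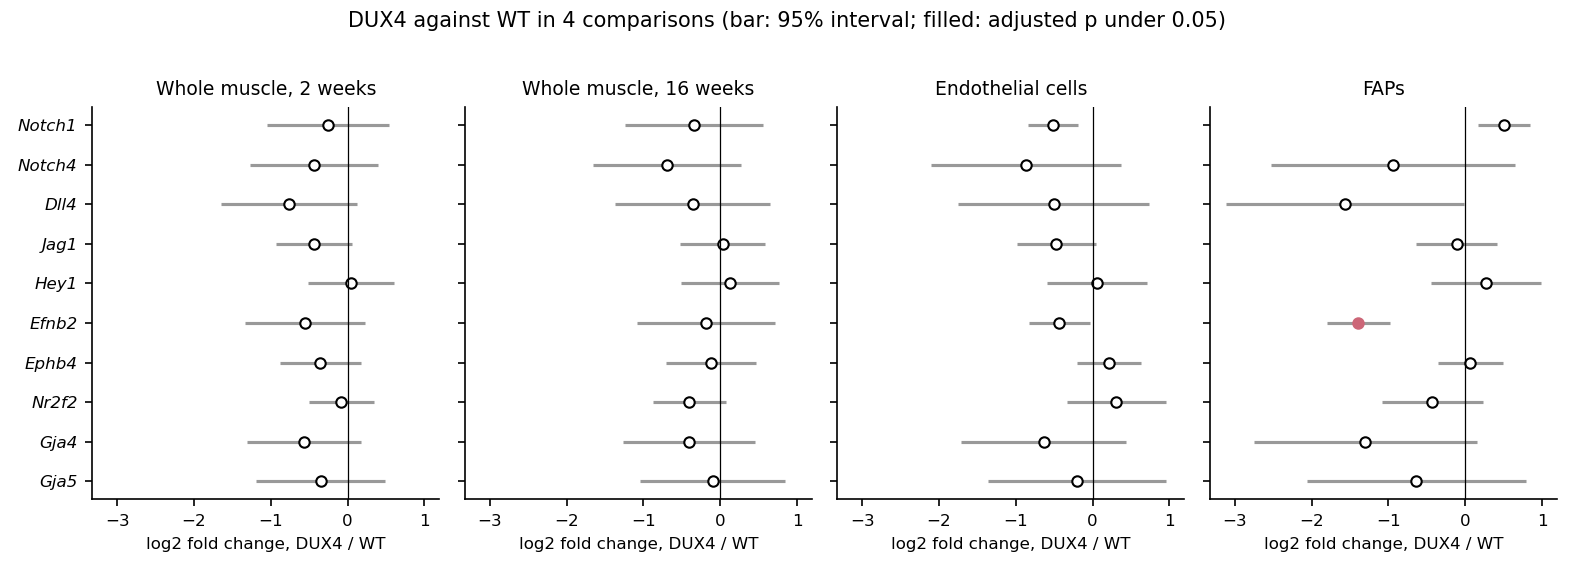
Log2 fold change of DUX4 over WT for the 10 genes in 4 comparisons, with bars for the 95% interval of the edgeR fit, filled where the adjusted p was under 0.05. Efnb2 in FAPs (-1.39) is the filled point, and Notch1 lies on opposite sides of 0 in endothelial cells (-0.52) and FAPs (0.50).

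In whole muscle at 2 weeks, none of the 10 genes was called by edgeR, where 17.6% of the 15396 genes tested were called. The shares of DESeq2 and limma voom over all genes are not given, so their counts of members have no such measure. No member had an unadjusted p under 0.05 (0 of 10), DESeq2 called 0, and limma voom with quality weights called 2, Dll4 (-1.07; adjusted p = 0.0150) and Gja4 (-0.91; 0.0183). Changes were below 0 for 9 of the 10, with a median of -0.40 against -0.01 over all genes, and the 11 core endothelial markers, all below 0, had a median of -0.63. The markers summed to 219 to 592 CPM in DUX4 and 446 to 751 CPM in WT. Muscle fibre markers, the most abundant transcripts here, summed to 56000 to 114000 CPM in DUX4 and 115000 to 135000 CPM in WT, and their part in the CPM of the members was not tested. In bulk muscle, fewer endothelial cells and less RNA per cell cannot be told apart.

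Dll4 had 4.06, 3.28, 4.57, 12.1 and 9.33 CPM in DUX4 and 9.48, 8.57, 9.18, 16.7 and 12.4 CPM in WT (log2 -0.76 ± 0.42; edgeR adjusted p = 0.228). Notch4 had 7.46, 7.27, 9.71, 27.8 and 17.6 CPM against 15.2, 16.7, 13.6, 21.4 and 27.2 CPM (-0.43 ± 0.40). In both genes DUX4 replicates 1 to 3 were low and replicates 4 and 5 high. Efnb2 had 6.35, 6.85, 8.32, 14.9 and 10.8 CPM against 9.15, 14.3, 10.7, 18.7 and 16.3 CPM (-0.56 ± 0.37). Gja4 had 1.37, 2.20, 3.05, 6.58 and 2.07 CPM against 3.10, 5.75, 5.14, 4.46 and 4.05 CPM (-0.56 ± 0.35), and IDUX.2Weeks replicate 4 was the 1 high DUX4 library. Without that replicate the Gja4 change was -1.04 (adjusted p = 0.0162).

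Notch1 (-0.26 ± 0.38), Jag1 (-0.43 ± 0.24), Ephb4 (-0.36 ± 0.25) and Gja5 (-0.35 ± 0.40) also lay below 0. Hey1 had 5.76, 6.79, 5.59, 6.11 and 7.95 CPM in DUX4 and 5.15, 9.11, 5.42, 5.41 and 6.13 CPM in WT (0.05 ± 0.27), and Nr2f2 had 11.1, 14.4, 10.3, 12.0 and 7.60 CPM against 12.0, 15.2, 9.92, 10.3 and 11.3 CPM (-0.08 ± 0.20). No member had groups apart at this time, where 13.6% of all genes did.

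The 2 sets of 2-week libraries gave different counts. In replicates 1 to 3 alone, 4 of the 10 genes were called by edgeR, all lower, where 22.1% of 14112 genes tested were called: Dll4 (-1.21 ± 0.18; adjusted p = 0.00427), Notch4 (-0.91 ± 0.16; 0.00769), Ephb4 (-0.56 ± 0.14; 0.0254) and Efnb2 (-0.67 ± 0.20; 0.0490). In replicates 4 and 5 alone 0 were called, with Dll4 at -0.47 ± 0.24, Notch4 at -0.12 ± 0.27, Ephb4 at -0.12 ± 0.22 and Efnb2 at -0.47 ± 0.22. With a term for the set in the fit, 0 were called. Replicates 4 and 5 are only 2 against 2 libraries. The share of all genes called is not given for these last 2 fits. The 4 calls in replicates 1 to 3 and the 0 calls here therefore do not show that the sets differ. The core endothelial sum was also lower in DUX4 in both sets. Within replicates 1 to 3 it was 219 to 302 CPM in DUX4 and 446 to 472 CPM in WT. Within replicates 4 and 5 it was 592 and 463 CPM in DUX4 and 751 and 614 CPM in WT. By single markers, DUX4 libraries lay below WT for 11 of 11 in replicates 1 to 3. In replicates 4 and 5 they did so for 5 of 11, and they lay above WT for 0 in either set. The part of vessel content in the 4 calls was not tested.

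At 16 weeks none of the 10 was called by edgeR, where 26.6% of genes were called, with 0 at an unadjusted p under 0.05, 0 by DESeq2 and 1 by limma voom (Nr2f2, -0.70; adjusted p = 0.00454). The 26.6% is edgeR's share, and those of DESeq2 and limma voom over all genes are not given. No member had groups apart, where 27.1% of all genes did. The median change of the 10 was -0.26, that of the core endothelial markers -0.25 and that of all genes 0.01. Nr2f2 had 8.90, 12.2, 10.5 and 9.65 CPM in DUX4 and 8.34, 13.8, 18.9 and 13.0 CPM in WT (-0.40 ± 0.22; edgeR adjusted p = 0.201). WT.16Weeks replicate 1 was its lowest WT library, and the change was -0.58 without it (adjusted p = 0.0411) and -0.69 without WT.16Weeks replicates 1 and 4 (0.0386).

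WT.16Weeks replicate 1 was also the lowest WT library for the other 9 genes. Notch1 was at 3.78 CPM there and at 12.0, 18.1 and 18 CPM in the other WT libraries, against 8.43, 9.76, 7.43 and 15.0 CPM in DUX4 (-0.34 ± 0.43). Notch4 had 5.98, 7.62, 4.96 and 8.83 CPM in DUX4 and 4.10, 8.78, 12.7 and 19.3 CPM in WT (-0.69 ± 0.46). Efnb2 had 5.51, 8.69, 7.12 and 10.7 CPM against 2.02, 14, 9.51 and 11.1 CPM (-0.18 ± 0.42). Dll4 (-0.36 ± 0.48), Jag1 (0.04 ± 0.26), Hey1 (0.13 ± 0.30), Ephb4 (-0.12 ± 0.28), Gja4 (-0.41 ± 0.40) and Gja5 (-0.10 ± 0.45) had intervals that held 0. The DUX4 change at 16 weeks did not differ from that at 2 weeks by the edgeR interaction test for any member (0 of 10 called, 0 at an unadjusted p under 0.05, 0 by DESeq2 and 0 by limma voom), where 0.299% of genes were called by edgeR. The differences ran from -0.32 to 0.47 on the log2 scale, with SEs of 0.30 to 0.64.

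**Figure D5:**
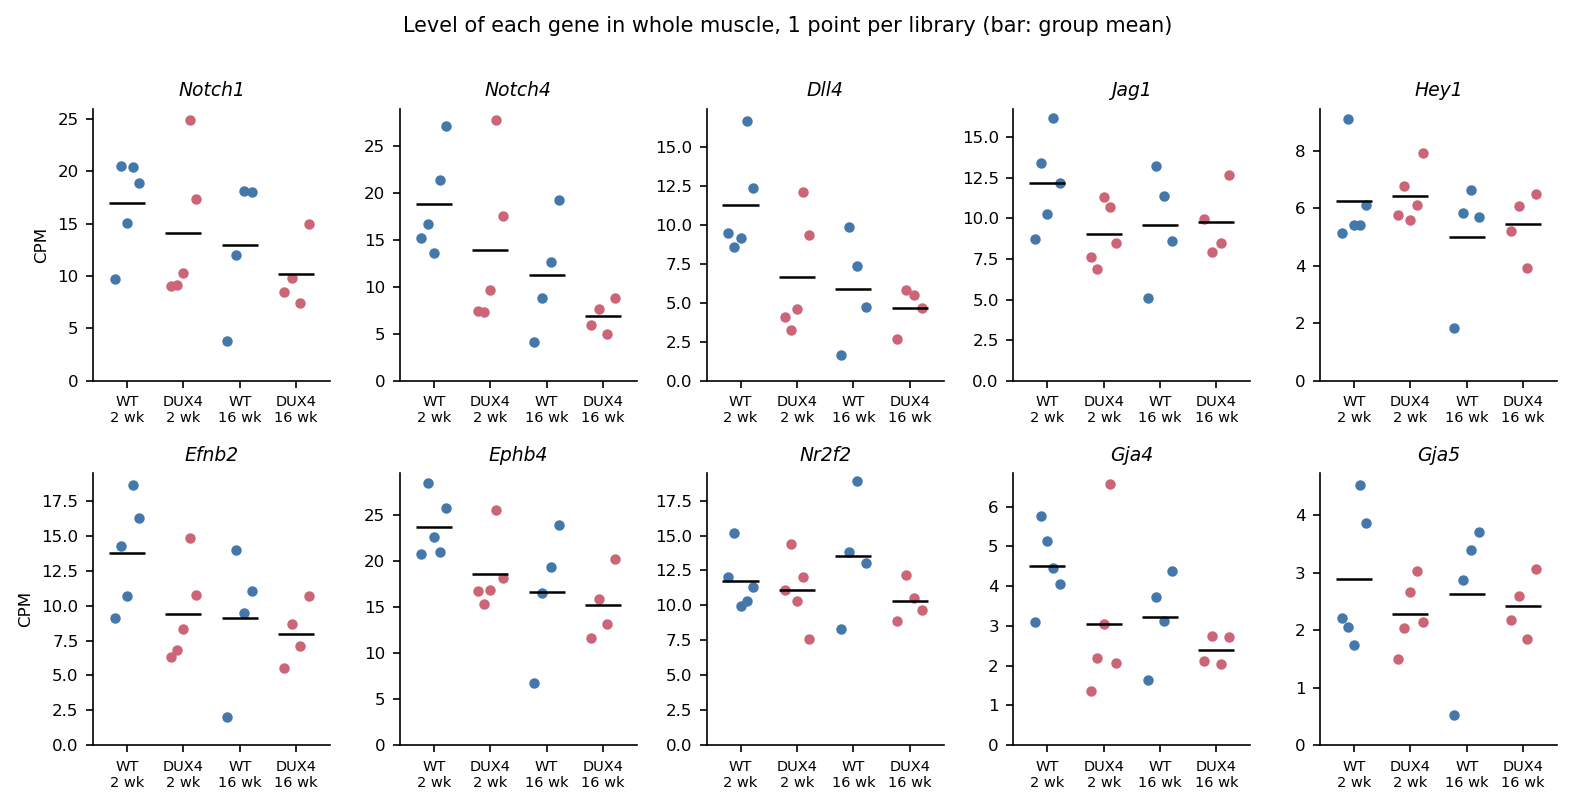
Level of each of the 10 genes in whole muscle, in CPM on a linear axis from 0, with 1 point per library, WT in blue, DUX4 in red and a bar at the group mean (5 libraries a group at 2 weeks, 4 at 16 weeks). The groups overlap for all 10 genes at both times, and WT.16Weeks replicate 1 (3.78 CPM for Notch1) is the low point of its group.

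Measured against the core endothelial markers of the same library, no member passed the test between genotypes in whole muscle. The difference in log2 CPM between each member and the mean of the 11 markers was compared over libraries by an exact two-sided permutation test, with Benjamini-Hochberg adjustment over 20 tests (10 genes at 2 times). The lowest raw p was 0.0857, for Hey1 at 16 weeks (-1.87 ± 0.20 in DUX4 and -2.13 ± 0.14 in WT; n = 4 and 4), followed by 0.0873 for Hey1 at 2 weeks (-1.85 ± 0.54 and -2.56 ± 0.49; n = 5 and 5), and the lowest adjusted p was 0.556 by the exact permutation tests. Such a test can go no lower than 0.0286 with 4 against 4 libraries and 0.00794 with 5 against 5. At 2 weeks Efnb2 was at -1.37 ± 0.15 in DUX4 and -1.45 ± 0.29 in WT, and Notch4 at -0.95 ± 0.31 and -1.0 ± 0.27, differences smaller than the SD of either group. Dll4 was the member furthest below WT on this scale at 2 weeks, at -1.97 ± 0.27 and -1.73 ± 0.15 (exact permutation p = 0.111).

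The log2 ratio of Efnb2 to Ephb4, arterial ligand to venous receptor, was -1.39 to -0.75 in DUX4 and -1.17 to -0.17 in WT muscle at 2 weeks, and -1.05 to -0.86 and -1.68 to -0.24 at 16 weeks. The ratio of Dll4 to Jag1 was -1.28 to 0.18 and -0.64 to 0.11 at 2 weeks, and -1.83 to -0.44 and -1.56 to -0.42 at 16 weeks. The groups overlapped in all 4 cases, and the exact two-sided permutation p was at least 0.222, or 0.686 after adjustment over the 4. Neither the sorted ratios nor their difference from whole muscle was tested.

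Per kilobase of exon, Ephb4 was the highest of the 10 in all 4 whole-muscle groups, from 3.27 ± 0.81 CPM per kb in IDUX.16Weeks to 5.12 ± 0.72 in WT.2Weeks, and Gja5 the lowest, from 0.395 ± 0.102 to 0.501 ± 0.215. Dll4, first in sorted WT endothelial cells, was next after Ephb4 in WT.2Weeks at 2.93 ± 0.878, and 3 genes stood between them in each of the other 3 groups. Ephb4 was separate from the next gene in 3 of the 4 groups and overlapped it in WT.16Weeks.

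Of 33 further Notch pathway genes tested in whole muscle, 3 were called at 2 weeks (9.09%, against 17.6% of all genes) and 7 at 16 weeks (21.2%, against 26.6% of all genes), so that neither share was above that of all genes. Maml2, which encodes a coactivator that binds the cleaved Notch receptor, was at 15.1 to 24.9 CPM in DUX4 and 6.69 to 9.33 CPM in WT at 2 weeks (1.29 ± 0.22; edgeR adjusted p = 0.000667), and at 9.76 to 16.1 CPM and 2.48 to 5.83 CPM at 16 weeks (1.68 ± 0.26; 0.00022). The groups did not overlap at either time. Psen2, a catalytic subunit of the protease that frees the active part of Notch, rose at both times (0.45 ± 0.14 and 0.47 ± 0.16). These were the 2 genes called of 13 for cleavage and the nuclear complex at 2 weeks, and at 16 weeks Adam17 (0.53 ± 0.14) rose and Snw1 (-0.56 ± 0.13) fell beside them. Rbpj (-0.72 ± 0.70 and -0.91 ± 0.78) and Notch3 (-0.63 ± 0.30 and -0.40 ± 0.33) were not called at 2 or 16 weeks. Of the modulators, Pofut1, which encodes an enzyme that adds fucose to Notch, fell at 2 weeks (-0.39 ± 0.11), and Spen, a corepressor at Notch targets, fell at 16 weeks (-0.61 ± 0.18). Of 5 further targets tested, Id1 (-1.01 ± 0.34) and Myc (-1.52 ± 0.52) fell at 16 weeks.

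The further arterial and venous genes were called singly. Of 15 arterial genes tested, Mecom (-0.82 ± 0.24) and Edn1 (-0.95 ± 0.32), which encodes endothelin, fell at 2 weeks, and Tmem100 (-2.66 ± 0.68) fell at 16 weeks. Tmem100 was higher in WT FAPs than in WT endothelial cells. All 15 arterial genes lay below 0 at 2 weeks, with a median of -0.54, beside the -0.63 of the core endothelial markers. Of 11 venous genes, Il6st fell at both times (-0.46 ± 0.12 and -0.45 ± 0.13), and Vcam1 (1.14 ± 0.25), Tmem252 (0.58 ± 0.15) and Bst1 (2.10 ± 0.51) rose at 16 weeks. Il6st was the venous gene not called between WT FAPs and WT endothelial cells. Vcam1 is also a satellite cell marker, and of 6 satellite cell markers, Vcam1 included, 3 were higher and 1 lower at 16 weeks. Of 8 ephrin and Eph genes, Efna1 fell (-0.75 ± 0.17) and Ephb1 rose (1.5 ± 0.33) at 2 weeks, and Ephb1 (3.08 ± 0.41), Ephb3 (2.14 ± 0.41) and Ephb2 (1.67 ± 0.35) rose at 16 weeks, while Ephb4 itself did not pass the test at either time.

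The genes most like each member were sought by Pearson's r of log2 CPM over the 18 whole-muscle libraries, which share tissue, depth and a varying content of vessel RNA. Notch1 was nearest to Kitl (r = 0.961), Shank3 (0.959) and Hspa12b (0.948), and Efnb2 to Ptprb (0.966), which encodes an endothelial phosphatase, Hspa12b (0.956) and Kitl (0.952). Ephb4 was nearest to Sdc3 (0.963), Ehd2 (0.951) and Hspa12b (0.950), so that Hspa12b was among the 3 nearest genes of 3 members. Dll4 was nearest to Afdn (0.961), Lrtm1 (0.96) and Apol10b (0.939), and Notch4 to Trak1 (0.943), Gpihbp1 (0.942), a protein of capillary endothelium, and Pcdh1 (0.938). Gja5 was nearest to Atp2a3 (0.932), 9330159F19Rik (0.883) and Vwf (0.882), Gja4 to Slfn3 (0.901), Faap100 (0.886) and Xiap (0.881), Jag1 to Atp2a3 (0.875), Plekhg3 (0.873) and Pde3a (0.871), and Hey1 to Tmtc2 (0.876), Asah2 (0.873) and Plscr4 (0.873). Nr2f2 stood apart, with Msh3 (0.757), Rab11fip2 (0.747) and Zkscan8 (0.746) as its nearest genes.

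Among themselves, the 9 members other than Nr2f2 formed 36 pairs with r from 0.408 to 0.907 and a median of 0.758, the highest for Notch1 with Ephb4. Nr2f2 had r from 0.210 to 0.417 with the other 9. Its mean was 11.8 CPM in WT.2Weeks and 13.5 CPM in WT.16Weeks. With another library kit it was 16.1 CPM in WT endothelial cells and 8.34 CPM in WT FAPs. The core endothelial sum had medians of 472 CPM in WT.2Weeks, 449 CPM in WT.16Weeks and 5510 CPM in WT endothelial cells. Which cells of whole muscle held the Nr2f2 RNA was not tested. The arterial ligand Efnb2 and the venous receptor Ephb4 had nearly the same r with Notch1 (0.905 and 0.907), and Nr2f2 had an r of 0.417 with Ephb4. These correlations are descriptions of the libraries and carry no p.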

How the data were processed

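RNA-seq was measured in 32 libraries of whole mouse muscle and of sorted CD31+ endothelial cells and PDGFRa+ FAPs. The files deposited by the authors hold estimated counts per gene, made with Salmon 0.6.0 for build mm10 per the submitters' processing notes, which also name CASAVA 1.8. The sources used here do not state the annotation release or the strand setting. Estimated counts were rounded to whole numbers. Symbols, coordinates and exon lengths came from GENCODE vM21 (GRCm38), and promoters from RefSeq (GRCm38.p6). Per the labels' protocols, whole muscle and sorted cells had different library kits, so each was fitted separately (18 and 14 libraries) in R 4.3.3 with edgeR 4.0.16: filterByExpr with a minimum count of 10, TMM scaling, 1 term per group and the robust quasi-likelihood test. P-values were adjusted by Benjamini-Hochberg over all genes tested, and called means an adjusted p under 0.05. Levels are CPM (counts scaled to a library total of 1000000), log2 CPM used a prior count of 2, and likeness was sought among 15322 genes.

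The 10 genes, the other gene lists and the 2 sets of 2-week libraries were chosen with earlier results of these data known. All members are named in every comparison. Of each other list up to 3 called genes of smallest adjusted p are named per comparison, plus Notch3 and Rbpj, so that a gene named in one comparison may also be given in another. Groups came from the labels, and replicates were numbered in accession order, so that numbers pair no samples. Single values were compared over libraries by exact permutation tests. Alternatives were DESeq2 1.42.0, limma 3.58.1 voom with quality weights, DESeq2-type (RLE) scaling, no filter, a minimum count of 50, fits of only the groups compared, each library left out, the 2-week sets apart or as a term, WT.16Weeks replicates 1 and 4 left out, a prior count of 0.5, and the median of the endothelial markers in place of their mean. The DUX4 transgene was not analysed here.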

Additional observations from a re-analysis of the deposited data

Results flagged for a closer look

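Of 60 sets of 4 or 5 libraries examined for 1 value far from the others (Dixon's test, the members' CPM by group), 3 were picked out, where chance picks about 1 in 20. Hey1 was at 9.11 CPM in WT.2Weeks replicate 2 and at 5.15 to 6.13 CPM in the other 4 WT libraries. Ephb4 was at 25.6 CPM in IDUX.2Weeks replicate 4 and at 15.3 to 18.2 CPM in the other 4 DUX4 libraries, and this library also held the highest core endothelial sum of its group, 592 CPM. Ephb4 was at 208 CPM in CD31DUX replicate 1 and at 117 to 129 CPM in the other 3.

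The DUX4 change of Notch1 differed between FAPs and endothelial cells by 1.02 ± 0.22 on the log2 scale (edgeR interaction test, adjusted p = 0.0217). Notch1 was higher than every WT library in 4 of 4 DUX4 FAP libraries and lower than every WT library in 4 of 4 DUX4 endothelial libraries. The core endothelial markers had changes below 0 in both cell types, apart from Eng in FAPs (0.26 ± 0.14, not called). Their medians were -1.07 in FAPs and -0.46 in endothelial cells. The part of cell composition in the difference was not tested.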

How the results depend on the processing

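Of 796 values of single genes and ratios recomputed under the alternatives, 740 kept their direction and their side of the threshold, 8 lost the call, 18 gained one and 30 changed sign; the cause was not tested. Among the numbers of members called, that at 2 weeks (0) became 2 with limma voom, 4 in replicates 1 to 3 alone and 0 to 1 with 1 library left out. At 16 weeks (0) it became 1 with limma voom, 1 without WT.16Weeks replicates 1 and 4 and 0 to 1 with 1 library left out. In endothelial cells (0) it became 1 with DESeq2, 2 with limma voom and 1 with a minimum of 50 counts. In FAPs (1) it became 2 with DESeq2 and 1 to 2 with 1 library left out, and the cell type interaction (1) became 2 with DESeq2 and 0 to 2 with 1 library left out. Without single libraries the WT cell type comparison kept 9 to 10 calls. Apart from replicates 1 to 3 alone (22.1%), the share of all genes called is not given for these alternatives. Their counts of members cannot be set against such a share.

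The changes of sign were in log2 changes that were not called. At 2 weeks Notch1 was at 0.083 in replicates 4 and 5 alone, Hey1 at -0.11 and Gja5 at 0.033 in replicates 1 to 3 alone, and with 1 library left out Hey1 ran from -0.078 to 0.221 and Nr2f2 from -0.193 to 0.027. At 16 weeks Jag1 was at -0.16 with limma voom and -0.33 without WT.16Weeks replicates 1 and 4, and Hey1 at -0.13 and -0.21. With 1 library left out at 16 weeks, Dll4 ran from -0.69 to 0.006, Jag1 from -0.18 to 0.23, Hey1 from -0.17 to 0.30, Efnb2 from -0.53 to 0.10, Ephb4 from -0.39 to 0.087, Gja5 from -0.46 to 0.084, the Efnb2 to Ephb4 ratio from -0.14 to 0.34 and the Dll4 to Jag1 ratio from -0.45 to 0.035. In endothelial cells Hey1 was at -0.048 with limma voom, and with 1 library left out ran from -0.046 to 0.182 and Gja5 from -0.48 to 0.25. In FAPs Notch4 ran from -1.87 to 0.10, Jag1 from -0.25 to 0.085 and Ephb4 from -0.006 to 0.17.

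No paired analysis was possible because the replicates were numbered in accession order, which pairs no samples. Counts of Notch4, Dll4, Gja4 and Gja5 were low in FAPs, where single libraries lay at or under their limit of 3 counts. PDGDUX replicate 4 lay under it for each of these genes, and PDGDUX replicate 3 for Gja4. PDGDUX replicate 4 had the highest library total of its group, 13725746 counts. It also had the lowest core endothelial sum of the FAP libraries, 225 CPM. The cause of these low counts was not tested.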
